A study of Mus musculus with 816 samples.

Results

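Untreated cultures of primary mouse microglia that were harvested at 72 h were compared with those harvested at 24 h. The members were chosen from the labels alone, as the cultures with no stimulus at either time, which gave 25 cultures at 72 h and 40 cultures at 24 h. These 65 cultures are among the 784 cultures and 816 samples of the series, in which cultured microglia were exposed to a panel of stimuli and microglia were also isolated from mice. Both groups received fresh medium without a stimulus, and their labels of treatment and duration differ only in the time. The comparison asks how the untreated baseline itself moved between the harvests. Cell lot, culture plate, library pool and well position also differed between the groups. The cells were commercial microglia from neonatal mouse brain, grown on poly-lysine in multi-well plates, and per the study's methods the last change of medium came 4 days after plating. The strain and sex of the source animals are not given in the sources used here, and wells of a plate shared a cell lot and their handling, so the culture plate was taken as the replicate.

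Microglia are the resident macrophages of the brain. In tissue their identity depends on TGF-beta and on CSF1 receptor signalling, which keep genes such as Cx3cr1, Tmem119 and Olfml3 on, and much of this programme fades when the cells are taken into culture. Macrophages also recycle iron: they free it from haem with Hmox1 and release it through ferroportin, the product of Slc40a1. The transcription factor NRF2 turns on genes that make glutathione and clear peroxides under oxidative stress.

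The time points were not spread over the same plates. None of the 10 culture plates held untreated wells of both times (0 of 10), nor did any of the 16 library pools (0 of 16). The cells came from 3 lots, named Feb15, March15 and May16 in the file header. The 24 h wells came from all 3 lots: 19 wells on 2 plates of the February lot, 13 wells on 3 plates of the March lot and 8 wells on 1 plate of the May lot. All 25 wells at 72 h came from 4 plates of the May lot, so the pooled comparison sets 1 lot against a mixture, and the May lot alone has a single 24 h plate. The position in the plate differed as well. Of the 24 h wells, 25% lay at the edge or in a corner, and of the 72 h wells 60% did, with all 10 middle wells of 72 h on a single plate and the 15 edge or corner wells on the other 3. In the pooled comparison, the time, the cell lot and the culture plate cannot be told apart.

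Depth, read from the steps between low values, ran from 1.09 M to 15 M mapped reads at 24 h (median 5.36 M; M, 1e6) and from 1.45 M to 14.4 M at 72 h (median 5.89 M). The mean depth of a plate did not differ by the exact 2-sided permutation test over the 10 plates (difference 1.51 M, p = 0.457; the smallest p the design allows is 0.00476). The number of genes above 5 CPM did: it was 8961 ± 311 (SD, n = 6 plates) at 24 h and 8192 ± 631 (n = 4 plates) at 72 h, with an exact permutation p of 0.0381. CPM are the reads of a gene per 1e6 mapped reads of the culture. The cells carried the markers of microglia at both times, with 10 of 10 markers detected and a summed level of 5262 to 9902 CPM over the 24 h plates and 3190 to 7229 CPM over the 72 h plates. P2ry12, a receptor that defines microglia in tissue, stayed at or under 12.8 CPM in all 65 wells. Of the markers of other brain or blood cells, Mog, Olig2, Lum, Cldn5, Tek, S100a9, Ngp, Cd2 and Rag1 were listed at 0 in all 65 wells. The 5 markers of perivascular macrophages, of which Cd163 and Lyve1 stayed under 5 CPM, summed to 247.4 to 438.9 CPM on the 24 h plates and to 162.3 to 539.5 CPM on the 72 h plates, and the 6 of endothelial cells to 31.6 to 113.9 CPM and to 39.3 to 54.6 CPM. The sum of 7 fibroblast and mural cell genes was 50.4 to 627.7 CPM on the 24 h plates of the February and March lots, 3.29 CPM on the 24 h plate of the May lot and 12.9 to 19.3 CPM at 72 h.

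Of 11986 genes tested, 62 were higher (0.517%) and 335 were lower (2.79%) at 72 h, or 397 in all (3.31%). The test was limma on the plate means of log2(CPM + 1), 4 plates against 6, and a gene was called at a Benjamini-Hochberg adjusted p under 0.05 and a difference of at least 1 on the log2 scale. The median difference over all genes tested was -0.25, and quantile normalisation, which moved it to 0.03, gave 98 higher and 185 lower genes in place of 62 and 335. Genes whose plate means did not overlap between the times numbered 105 with 72 h above (0.876%) and 337 with 72 h below (2.81%). Among the called genes, 29 higher (0.242%) and 151 lower (1.26%) were also free of overlap. The count depended on the plates: leaving out each plate in turn gave between 15 calls, without the 72 h plate of 6 edge wells, and 2026 calls, without the 72 h plate that held the middle wells. The corner well at 72 h and 4 wells of a February library pool stood apart from the rest, and 263 genes were called without the former and 504 without the latter. Since the libraries are bulk RNA of a well, fewer cells of a type and less RNA per cell cannot be told apart, and the p-values measure the spread between plates, not between separate animals.

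With the cell lot as a term, the estimate became the difference within the May lot, 4 plates against 1. Then 0 genes were higher (0%) and 1 was lower (0.00834%), with 322 genes at an unadjusted p under 0.05, against 2697 without the term. With both lot and well position as terms over all wells and the plate as a random block, an alternative chosen after seeing the data, 3 genes were higher (0.025%) and 7 lower (0.0584%). That fit had 1 position term for all lots. Its p-values count wells of the single May plate at 24 h as replicates, with a correlation within plates of 0.213. The differences within the May lot could also be read by position, again with no test. At least 1 log2 higher at 72 h in both the middle wells and the edge or corner wells were 153 genes (1.28%), and at least 1 log2 lower in both were 119 genes (0.993%). Called in the pooled comparison and moved by at least 1 log2 the same way in both positions were 3 higher genes (0.025%) and 28 lower genes (0.234%). This set of 31 was drawn up after the values were seen. It is described here because it holds the changes that were present in the only lot with both times, at both positions. Of its lower genes, 24 of 28 had plate means that did not overlap, and 8 of 28 had middle wells of the May lot that did not overlap. The set was selected on these same values, so neither count is further support for a fall. The middle wells came from 1 plate at each time and are not replicates of a time. Over all genes tested, these middle wells did not overlap with 72 h above in 466 (3.89%) and with 72 h below in 149 (1.24%).

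**Figure D1:**
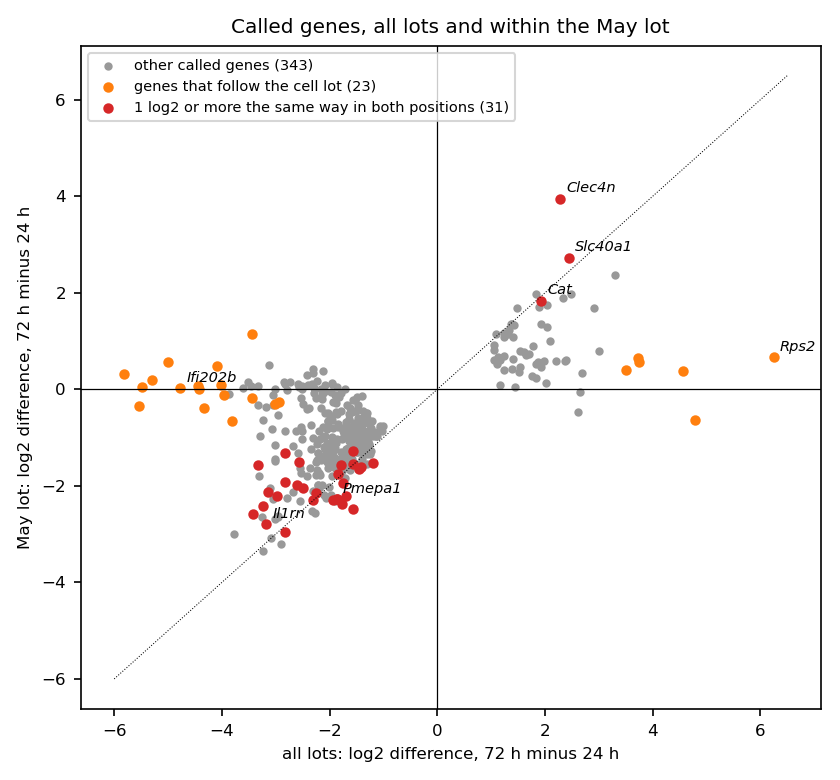
Each point is 1 of the 397 called genes, with its log2 difference (72 h minus 24 h) over all lots on the x axis and its difference within the May lot on the y axis. The 31 genes that moved at least 1 log2 the same way at both positions lie away from 0 on both axes, while 23 genes that follow the lot lie far from 0 on the x axis and between -0.66 and 1.15 on the y axis.

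To show the regulatory sequence of the set, RefSeq promoters (GRCm38.p6, 250 bases before the first base of the transcript) were matched by symbol for 24 of the 31 genes, and 1 is printed for each direction: Cat, which was higher, and Cyth4, which was lower. Capitals mark the matches to 3 motifs searched on both strands: GAGGAA, the core bound by the macrophage factor PU.1, TGACNNNGC, the core of the antioxidant response element bound by NRF2, and TGANTCA, the AP-1 site, which can overlap the second. Cat is at chr2:103485154-103485403 on the minus strand and Cyth4 at chr15:78596797-78597046 on the plus strand, both printed 5′ to 3′.
Cat: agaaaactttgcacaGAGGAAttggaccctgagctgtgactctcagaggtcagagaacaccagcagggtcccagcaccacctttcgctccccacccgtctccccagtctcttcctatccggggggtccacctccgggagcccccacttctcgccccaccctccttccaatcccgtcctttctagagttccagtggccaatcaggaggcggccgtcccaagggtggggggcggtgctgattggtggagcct
Cyth4: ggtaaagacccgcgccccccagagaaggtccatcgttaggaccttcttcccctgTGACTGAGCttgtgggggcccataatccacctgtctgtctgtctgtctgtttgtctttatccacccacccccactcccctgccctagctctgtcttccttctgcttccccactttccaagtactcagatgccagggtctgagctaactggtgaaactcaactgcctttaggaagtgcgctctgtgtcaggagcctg
The Cat window held GAGGAA and neither other motif, and the Cyth4 window held TGACNNNGC alone. Over the 24 matched genes, GAGGAA was found in 5 (Arl4c, Cat, Fkbp5, Parvg and Sdc1), against 23.1% of all 27025 promoters. TGACNNNGC was found in 5 (Cad, Cyth4, Mical2, Smad6 and Zfpm1), against 10.15% of all promoters, and TGANTCA in 1 (Il1rn), against 6.87%. A match is a description of the letters and no match says only that they were not in this window.

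The largest pooled rise among the 31 genes was that of an iron transporter. Slc40a1 (chr1:45908068-45926523, minus strand) encodes ferroportin, the iron exporter of the cell. Its level was 53.7 CPM in the lowest, 157.6 in the median and 369.9 in the highest of the 24 h wells, and 39.3, 757.1 and 2333 CPM in the 72 h wells. The wells overlapped only through the corner well at 72 h, which was the lowest of all, and the plate means did not overlap. The log2 difference was 2.44 ± 0.39 (SE, adjusted p = 0.0088 by limma), and it was called again when any plate was left out, with an adjusted p of at most 0.0441. Within the May lot the difference was 2.73 ± 0.73 (unadjusted p = 0.00227 by limma). The middle wells there ran from 53.7 to 152 CPM at 24 h and from 408 to 634 CPM at 72 h, with no overlap. The 2 edge wells at 24 h were at 312 and 370 CPM, above all middle wells of that plate, and 1 corner well at 72 h lay below them. The part of position in these values was not tested for this gene by itself, and with lot and position as terms the difference was 2.25 (adjusted p = 0.0274).

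The other members of the iron and metallothionein list moved in both directions. Of 12 tested, 2 were higher (Slc40a1 and Hmox1) and 2 lower, with a median of 0.35 against -0.25 over all genes. Hmox1, the enzyme that opens the haem ring and frees its iron, had wells of 265, 493 and 1819 CPM (lowest, median, highest) at 24 h and of 958, 1401 and 3701 CPM at 72 h. The log2 difference of Hmox1 was 1.62 ± 0.32 (adjusted p = 0.0199 by limma), but 0.77 within the May lot, where the 24 h plate already stood at 1035 CPM against 350 to 685 CPM on the plates of the other lots. Tfrc, the transferrin receptor that brings iron in, was lower by -1.31 (adjusted p = 0.0381), and Cp, the ferroxidase ceruloplasmin that works with ferroportin, by -2.05 (adjusted p = 0.0263). In the May lot Tfrc differed by 0.02 in middle wells and by -0.54 in edge or corner wells, and Cp by -0.11 and -1.71. The ferritin subunits Fth1 and Ftl1 differed by 1.11 (adjusted p = 0.158) and 0.57 (adjusted p = 0.435) and were not called.

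**Figure D2:**
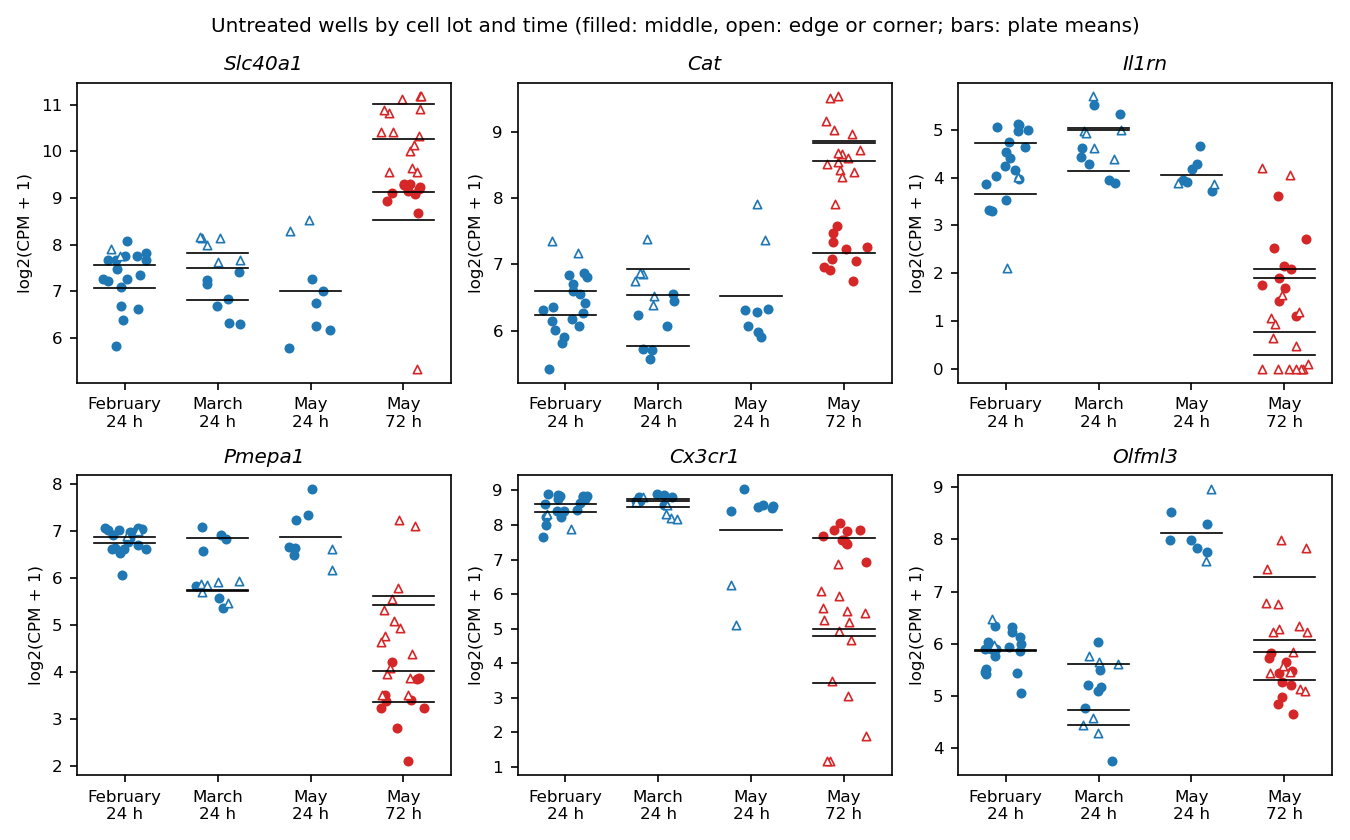
Each point is an untreated well, with log2(CPM + 1) on the y axis and cell lot and time on the x axis, filled for middle wells and open for edge or corner wells; black bars are plate means. Slc40a1 and Cat lie higher and Il1rn and Pmepa1 lower at 72 h. Cat and Cx3cr1 also separate by position within each time of the May lot. Olfml3 has its highest plate mean at 24 h in that lot.

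Targets of NRF2 formed the list with most of the rises. Of its 22 genes, all tested, 6 were higher (27.3%, against 0.517% of all genes) and 0 lower: Gclm, Gsta3, Cat, Hmox1, Taldo1 and Blvrb. The median of the list was 1.13 over all lots, against -0.25 over all genes, and it was 1.21 under either other scaling. Within the May lot it was 1.32 by plate means, 0.44 in middle wells and 0.64 in edge or corner wells, against -0.03, 0.26 and -0.05 over all genes. By position the list thus stood less far above the rest than by plate means, and least in the middle wells. Cat, the catalase that breaks down hydrogen peroxide, was the member that moved at least 1 log2 at both positions. Its wells ranged from 41.8 over 79.7 to 240.2 CPM at 24 h and from 106.2 over 335.9 to 747.6 CPM at 72 h, with overlapping wells and plate means that did not overlap. The difference was 1.93 ± 0.33 (adjusted p = 0.0103 by limma), 1.84 ± 0.61 within the May lot, 1.02 in its middle wells and 1.09 in its edge or corner wells. Middle wells of the May lot ran from 58.96 to 78.84 CPM at 24 h and from 106.2 to 190.4 CPM at 72 h. Its edge or corner wells were at 165 and 240.2 CPM at 24 h and ran from 239.6 to 747.6 CPM at 72 h. The levels of Cat thus did not overlap between the positions at either time. Without the 72 h plate of 6 edge wells the adjusted p of Cat was 0.061, and without that of 5 edge wells the call was lost as well.

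Gclm, a subunit of the enzyme that limits glutathione synthesis, showed how far position and time were mixed. It ran from 188 over 389 to 2062 CPM at 24 h and from 243 over 3788 to 6173 CPM at 72 h, a difference of 2.48 ± 0.61 (adjusted p = 0.0367 by limma). Within the May lot, the middle wells were at a median of 389 CPM at 24 h and 287 CPM at 72 h, and the edge or corner wells at 1973 and 4689 CPM. Between the positions the levels did not overlap at either time, and the difference with time was -0.42 in middle wells and 1.24 in edge or corner wells. Gsta3, a glutathione transferase, was at 0.409 and 0.79 CPM in the middle wells and at 8.51 and 10.9 CPM in the edge or corner wells (medians at 24 h and 72 h). The part of well position in the rises of this list was not tested beyond the fit with position as a term, in which Cat was called (1.26, adjusted p = 0.036) and Gclm was not (0.82, adjusted p = 0.833).

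Further genes that rose encode receptors, enzymes and a cytokine. Clec4n, which encodes the fungal sugar receptor dectin-2, had wells of 0.538, 37.2 and 135 CPM at 24 h and of 23.2, 188 and 579 CPM at 72 h. Its difference was 2.28 ± 0.58 (adjusted p = 0.041 by limma) over all lots and 3.95 ± 0.92 within the May lot, the middle wells of which rose from a median of 5.18 to 35.3 CPM without overlap. It held its call in 2 of the 10 fits that left out a plate, so it was lost in 8 of them. Clec7a, encoding the related receptor dectin-1, differed by 1.87 (adjusted p = 0.0298) and by 0.57 within the May lot. Cyb5a, the electron carrier cytochrome b5, was higher by 2.03 ± 0.33 (adjusted p = 0.0088), 1.74 within the May lot and 0.96 at each position. Akr1b8, an aldo-keto reductase, was higher by 2.91, Gbe1, the glycogen branching enzyme, by 2.03, and Gdf15, a stress-induced cytokine, by 3.00. Within the May lot these 3 differences were 1.69, 1.29 and 0.79, so each was smaller there than over all lots. Gdf15 differed by 1.69 in middle wells and by -0.18 in edge or corner wells. Hspa8 and Hspe1, a constitutive and a mitochondrial chaperone, were the 2 of 14 chaperone genes called higher, by 2.38 and 1.06. The pair differed by 0.59 and 0.81 within the May lot, and both kept their call in 3 of the 10 fits that left out a plate.

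Genes of the TGF-beta pathway gave 4 falls among 17 tested (23.5%, against 2.79% of all genes) and 0 rises. They included Pmepa1, Smad7 and Smad6, known targets that the pathway itself induces, and no ligand, receptor or other SMAD of the list was called. Tgfb1, the ligand, differed by -0.47, the receptors Tgfbr1 and Tgfbr2 by -0.87 and -0.62, and the signalling proteins Smad2, Smad3 and Smad4 by -0.42, -0.90 and 0.01, with adjusted p of 0.111 to 0.992 by limma. The median of the list was -0.62, against -0.25 over all genes, and within the May lot -0.56 by plate means, -0.16 in middle wells and -0.63 in edge or corner wells. Under quantile normalisation 1 of the 17 was called lower, and the median was -0.62.

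Pmepa1 (chr2:173224458-173276533, minus strand), which encodes a membrane protein that restrains TGF-beta signalling, was at 40.5, 99.9 and 239.8 CPM in 24 h wells and at 3.27, 14.4 and 150.7 CPM in 72 h wells. In the middle wells of the May lot it went from 89.9 to 240 CPM at 24 h to 3.27 to 17.5 CPM at 72 h, a difference of -3.69 with no overlap. The edge or corner wells of that lot were at 71.4 and 96.9 CPM at 24 h. At 72 h they ran from 10.3 to 150.7 CPM, a difference of -1.48 with overlap. The pooled difference of Pmepa1 was -1.87 ± 0.43 (adjusted p = 0.0304 by limma) and that with lot and position as terms -2.50 (adjusted p = 0.00344), but the pooled call was lost in 5 of the 10 fits that left out a plate. Smad6 and Smad7, the inhibitory SMADs, differed by -1.46 (adjusted p = 0.0339) and -1.51 (adjusted p = 0.0298), and within the May lot by -1.66 and -0.72.

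Genes of homeostatic microglia fell in part. Of 21 tested, 0 were higher and 3 were lower (14.3%, against 2.79% of all genes), and the median was -0.84. Within the May lot the median was -0.85 by plate means, 0.04 in middle wells and -0.73 in edge or corner wells. Over all genes these medians were -0.03, 0.26 and -0.05. In the middle wells 12 of the 21 differences were above 0, and in the edge or corner wells 5 were. Cx3cr1, the receptor for the neuronal chemokine fractalkine, was at 33.1, 380 and 529 CPM in 24 h wells and at 1.24, 60.9 and 265 CPM in 72 h wells. The difference was -3.26 ± 0.54 (adjusted p = 0.00961 by limma), with no overlap of plate means, and without the 72 h plate of 6 edge wells the adjusted p was 0.0569. By position within the May lot, the middle wells were at a median of 370 CPM at 24 h and 197 CPM at 72 h, with no overlap, and the edge or corner wells at 54.5 and 35.3 CPM. The differences by position, -0.97 and -1.26, were thus smaller than the pooled one. Ltc4s, the synthase of leukotriene C4, was lower by -1.93 (adjusted p = 0.0349) and differed by -1.75 and -1.02 at the positions. Sparc, an extracellular matrix protein that is also a marker of fibroblasts, was called at -3.32 (adjusted p = 0.0361), but it was at 0.751 CPM on the 24 h plate of the May lot, against 13 to 132 CPM on those of the other lots, and differed by 0.06 within the May lot.

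The defining members Tmem119, Olfml3 and Fcrls were not called in the pooled comparison, and their estimates within the May lot were lower. Olfml3, a secreted glycoprotein specific to microglia in brain, ran from 12.5 over 58.7 to 502 CPM at 24 h and from 24.4 over 49.4 to 254 CPM at 72 h, a difference of 0.35 ± 0.56 (adjusted p = 0.755 by limma). The 24 h plate of the May lot stood at 291 CPM and those of the other lots at 20.8 to 60.2 CPM. Edge or corner wells of the May lot were at 191.4 and 501.7 CPM at 24 h. At 72 h they ran from 33.2 to 254.1 CPM, with overlap between the times. Those of the 72 h plate of 4 wells ran from 56.5 to 254.1 CPM. Within the May lot, where the middle wells went from 217 to 369 CPM at 24 h to 24.4 to 55.9 CPM at 72 h, the difference was -1.999 ± 0.63 (unadjusted p = 0.00731 by limma), and with lot and position as terms it was -2.26 (adjusted p = 0.00167). Tmem119, a membrane protein used to mark microglia, differed by -0.03 ± 0.58 (adjusted p = 0.985) over all lots and by -1.79 ± 0.83 (unadjusted p = 0.0507) within the May lot. Fcrls, an Fc receptor-like protein of microglia, gave -0.59 (adjusted p = 0.41) and -1.84 (unadjusted p = 0.00866). The sign of Olfml3 thus depended on whether the lot was held fixed, and its fall rests on the single 24 h plate of that lot.

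Upstream of this programme, Spi1, which encodes the macrophage transcription factor PU.1, was the only called member of 13 tested in a list of the CSF1 receptor axis. Its wells were at 355, 1063 and 3239 CPM at 24 h and at 161, 494 and 856 CPM at 72 h, with overlap. The difference was -1.38 ± 0.33 (adjusted p = 0.0356 by limma), -1.55 within the May lot, -0.97 in middle wells and -1.59 in edge or corner wells, and the call held in 3 of the 10 fits that left out a plate. The receptor gene Csf1r itself differed by -0.73 (adjusted p = 0.199), and the transcription factor genes Irf8 and Runx1 by 0.09 and -0.60 with no call.

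Of genes for inflammatory cytokines and chemokines, 18 were tested, of which 0 were higher and 2 lower (11.1%, against 2.79% of all genes), with a median of -0.93 against -0.25 over all genes. Il1rn, the secreted antagonist of the interleukin-1 receptor, was at 3.32, 19.3 and 51.1 CPM in 24 h wells and at 0, 1.28 and 17.3 CPM in 72 h wells. The plate means, 22.97 ± 8.95 CPM (SD, n = 6) and 2.96 ± 3.04 CPM (n = 4), did not overlap, and the difference was -3.17 ± 0.42 (adjusted p = 0.00414 by limma). It was -2.79 within the May lot, with middle wells that did not overlap, and the call was kept without any plate (adjusted p of at most 0.0203). Cxcl2, a chemokine for neutrophils, was lower by -2.34 ± 0.60 (adjusted p = 0.0443), but its difference in the middle wells of the May lot was -0.27. The cytokine genes Tnf and Il1b differed by -1.76 each, with adjusted p of 0.0733 and 0.114, and were not called. In the May lot Tnf differed by -0.07 in middle wells and by -2.24 in edge or corner wells, and Il1b by -1.09 and -2.35. The list as a whole had a median of -0.10 in middle wells and -1.10 in edge or corner wells.

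Cell cycle genes had the lowest median of the lists with over 5 genes tested, and levels of some also separated by well position in the May lot. Of 39 tested, 0 were higher and 5 lower (12.8%), against 2.79% of all genes, with a median of -1.48 against -0.25, and 38 of 39 differences were at or below 0. Top2a, the topoisomerase of dividing cells, was at 7.31, 344 and 822 CPM in 24 h wells and at 0, 55.9 and 463 CPM in 72 h wells, a difference of -2.96 ± 0.73 (adjusted p = 0.0374 by limma). Within the May lot, the middle wells ran from 212 to 822 CPM at 24 h and from 261 to 463 CPM at 72 h, and the edge or corner wells from 7.31 to 46.5 and from 0 to 71.7 CPM. Middle and edge wells did not overlap at either time, and the times overlapped at each position. In the March lot at 24 h, the mean of Top2a was 159 CPM on the plate of 3 edge or corner wells. It was 409 CPM on the March plate of 4 middle wells. The replication genes Tk1, Mcm2 and Mcm5 were called lower by -3.24, -2.27 and -2.54, with differences of -0.83, -0.50 and 0.02 in the middle wells and of -1.15, -2.37 and -1.54 in the edge or corner wells of the May lot. The median of the list was 0.22 in middle wells and -0.34 in edge or corner wells of the May lot, against 0.26 and -0.05 over all genes. No member of the list was at least 1 log2 lower at both positions. Ccne1, the cyclin gene that opens S phase and no member of the list, is 1 of the 28 lower genes, with -1.30 in middle wells, -1.02 in edge or corner wells and a pooled difference of -1.85 (adjusted p = 0.0343 by limma).

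**Figure D3:**
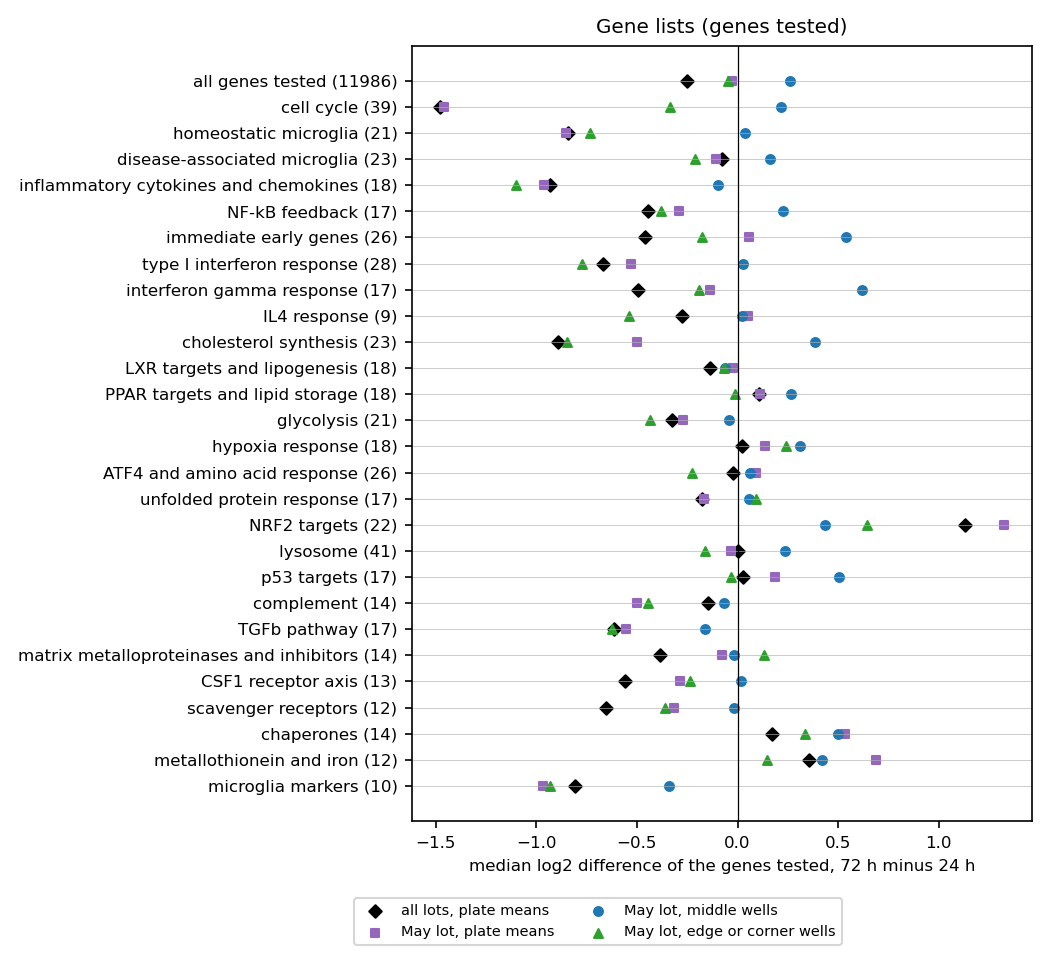
Median log2 difference (72 h minus 24 h, x axis) of the tested members of each gene list (y axis), over all lots, over the plate means of the May lot and over its middle and its edge or corner wells. NRF2 targets are at 1.13 over all lots and above 0 in all 4 readings, while the cell cycle list is at -1.48 over all lots and at 0.22 in the middle wells of the May lot.

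Further members of the 28 lower genes, picked after their values were seen, had varied functions. Fn1, which encodes fibronectin, was at 8.86, 62.0 and 153 CPM in 24 h wells and at 0.25, 3.71 and 26.3 CPM in 72 h wells, with a difference of -3.23 ± 0.39 (adjusted p = 0.00188 by limma) and of -2.43 within the May lot. Sdc1, a cell surface proteoglycan, was lower by -2.83, Parvg, an adaptor of integrins, by -2.57, Fscn1, the actin bundler fascin, by -2.82, and Mical2, which oxidises actin, by -2.61. Arl4c and Cyth4, a small GTPase and an exchange factor of the ARF family, were among the more abundant of the set. Arl4c ran from 425 over 757 to 1352 CPM at 24 h and from 130 over 268 to 432 CPM at 72 h, with a single range of overlap between 425 and 432 CPM. The difference of Arl4c was -1.56 ± 0.26 (adjusted p = 0.00961 by limma) and -1.25 with lot and position as terms (adjusted p = 0.0244), and its wells did not overlap at either position of the May lot. Cyth4 was at 371, 894 and 1469 CPM and at 61.8, 354 and 518 CPM, with differences of -1.84 ± 0.31 (adjusted p = 0.0101) and -1.76 within the May lot. S100a6 and S100a4, calcium-binding proteins, were lower by -1.78 and -2.49. Kcnn4, a calcium-activated potassium channel, was lower by -3.33 over all lots and by -1.57 within the May lot, where the 24 h plate stood at 30.7 CPM against 79.3 to 194 CPM on the others. Ch25h, which makes 25-hydroxycholesterol, was lower by -3.14, and Steap3, an iron reductase, and Usp2, a deubiquitinase, by -2.83 and -2.98.

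Under the omission of each plate in turn, 10 of the 68 named genes that were called kept their call in all 10 fits. Slc40a1 was among them on the higher side, and on the lower side were Fn1, Il1rn, Ch25h, Kcnn4, Mical2, S100a6, Steap3 and Usp2. Those outside the 10 kept it in 2 to 9 of the fits. In every one of the 68 genes the log2 difference kept its sign.

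The remaining lists had few calls. Genes of disease-associated microglia gave 1 rise (Clec7a) and 3 falls (Itgax, Ch25h and Axl) of 23 tested, with a median of -0.08. Itgax, an integrin subunit, was lower by -2.96 over all lots, but the 24 h plate of the May lot was at 52.4 CPM, below the 247 to 520 CPM of the others, and the difference within that lot was -0.53. Apoe, Trem2, Lpl and Gpnmb of the same list differed by 0.73, -0.23, 0.99 and -0.22 with adjusted p of 0.312 to 0.678 by limma. For MHC class II, 1 of 5 tested genes was lower: H2-DMa, a chaperone of peptide loading, by -1.75 (adjusted p = 0.0123) and by -1.95 within the May lot. None was called of the 26 immediate early genes, the 28 genes of the type I interferon response, the 17 of the interferon gamma response, the 23 of cholesterol synthesis, the 18 LXR targets, the 18 of the hypoxia response, the 26 of the ATF4 response, the 17 of the unfolded protein response or the 41 of the lysosome. Their medians over all lots lay between -0.89 (cholesterol synthesis) and 0.02 (hypoxia response).

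Some of the largest differences followed the cell lot. A set of 23 genes was put together after the values were seen. Each differed at least 5-fold between every plate of the May lot, at either time, and every plate of the other lots. Of these, 6 were higher in the May lot and 17 lower. All 23 were called in the pooled comparison, against 3.31% of all genes. The set was selected on the 72 h plates as well, so this count follows largely from the selection and is no separate result. Rps2, a protein of the small ribosomal subunit, was at 0 to 0.91 CPM on the 24 h plates of the other lots, at 148 CPM on the 24 h plate of the May lot and at 186 to 311 CPM at 72 h. It had the largest pooled rise of the named genes, 6.25 ± 1.03 (adjusted p = 0.00961 by limma), and differed by 0.66 within the May lot. Ubb, a ubiquitin gene, gave 3.74 and 0.56, and Lamtor3, a scaffold of the lysosome surface, gave 3.73 and 0.64. On the lower side, Ceacam10 was at 26.2 to 55.8 CPM on the plates of the other lots and was listed at 0 on every plate of the May lot, and Ifi202b, an interferon-inducible gene, was at 26.6 to 86.9 CPM there and at most at 0.0961 CPM in the May lot. Of the 17 lower genes, 9 are predicted genes or pseudogenes by their names, among them Rpl34-ps1 and Rps19-ps6. Reads of near-identical copies can be split between genes, so the values of Rps2 and of these copies are uncertain.

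**Figure D4:**
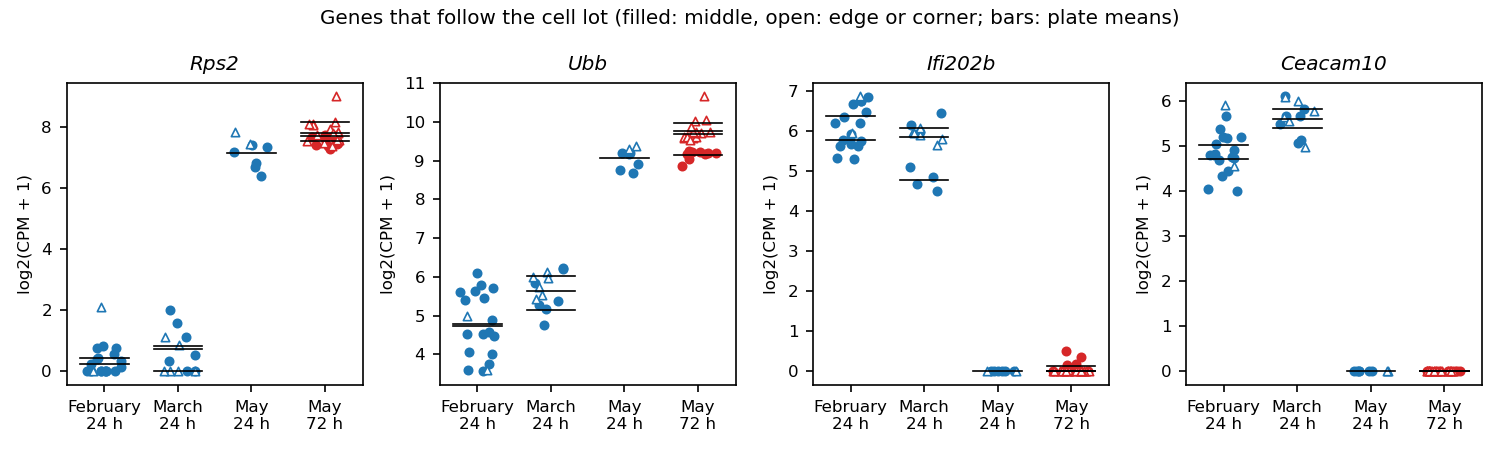
Each point is an untreated well, with log2(CPM + 1) on the y axis and cell lot and time on the x axis; filled points are middle wells, open points edge or corner wells and black bars plate means. Rps2 and Ubb are high and Ifi202b and Ceacam10 near 0 in the May lot at both times, so that the 24 h wells of this lot sit with the 72 h wells.

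The May lot also held stimulated wells of both times, which gave further readings of the same interval in wells that were not untreated. For 6 stimuli, GABA, GM-CSF, interferon alpha, estradiol and LPS at a lower and a higher dose, at least 3 middle wells were present at each time. All 24 h wells of these stimuli were on the 24 h plate of the untreated wells, and the 72 h wells were on 1 to 3 plates a stimulus, so the readings share plates, and no test was made. Slc40a1 was higher at 72 h under 6 of 6 stimuli, by 1.11 (GM-CSF) to 4.27 (LPS at the lower dose), and 6.93% of all genes tested were higher under 6 of 6. Cat and Clec4n were higher under 5 of 6. Of the 28 lower genes, 6 were lower under 6 of 6 stimuli (Il1rn, Fscn1, Pmepa1, Cyth4, Sdc1 and Parvg), against 2.95% of all genes. Another 5 were lower under 5 of 6, against 8.33%, and 10 under 4 of 6, against 16.2%. The rest were 5 under 3 of 6, against 23.5%, and 2 under 2 of 6, against 24.3%. The 28 genes, like Slc40a1, Cat and Clec4n, were selected in part on untreated wells of the same 24 h plate. A shift of that plate would enter both the selection and all 6 readings. The counts are therefore not separate support for a change with time, and the part of that plate was not tested. Il1rn differed by -1.21 under GABA to -6.68 under LPS at the higher dose. Under LPS at the lower and the higher dose its 24 h means were 723 and 1599 CPM, and those of Fscn1 966 and 790 CPM. The untreated middle wells of the May lot had 24 h medians of 15.8 and 15.7 CPM. The falls of these 2 genes under LPS thus started from raised levels, and the part of the LPS response in them was not tested. Pmepa1 ranged from -3.28 to -0.10 and was lower under all 6. Tnf and Il1b, not called in untreated wells, were lower under 6 of 6 stimuli, by -0.39 to -3.63 and by -1.74 to -4.04. The paper reports both as genes that LPS raises.

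**Figure D5:**
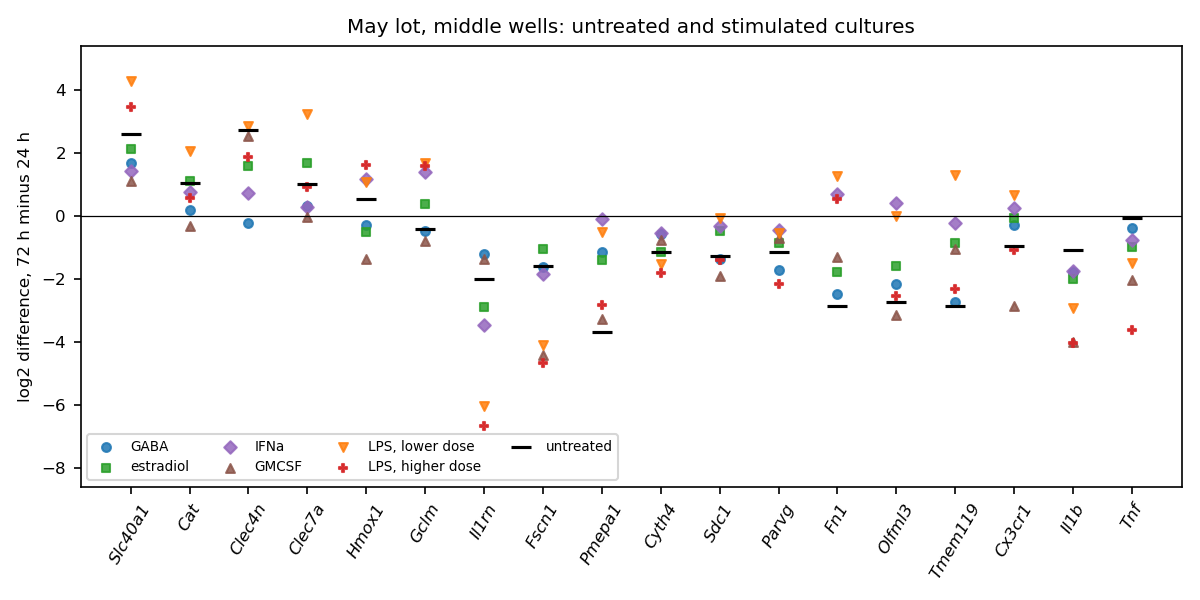
Log2 difference (72 h minus 24 h, y axis) in middle wells of the May lot for 18 genes (x axis), in untreated wells (black bars) and under 6 stimuli (symbols). Slc40a1 lies above 0 under all 6 stimuli and Il1rn, Fscn1, Pmepa1, Cyth4, Sdc1 and Parvg below 0, with Il1rn between -1.21 and -6.68.

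The genes that were called with the lot and the position as terms are given last, with the reserve that this contrast rests on 1 plate at 24 h. The single position term does not hold position fixed within each lot. On that plate Cx3cr1 was at 33.1 to 76 CPM in edge wells and at 335 to 529 CPM in middle wells. The March plates of 3 edge or corner wells and of 4 middle wells had means of 413 and 428 CPM. On the March plate with both positions, edge wells of Cx3cr1 ran from 287.2 to 320.7 CPM and middle wells from 411.2 to 472.4 CPM. The called genes were Slc40a1, Cat and Clec4n on the higher side, and Arl4c, Pmepa1, Olfml3, Npnt, Sprr2d, Dgkz and Esyt1 on the lower side. Npnt, which encodes the matrix protein nephronectin, was also the 1 gene called with the lot alone as a term. Its wells on the 24 h plate of the May lot ran from 5.91 to 78.8 CPM, and the mean of the plate was 31.4 CPM. The other 24 h plates were at 0.494 to 1.98 CPM and the 72 h plates at 0 to 1.09 CPM, so this plate stood apart from all others. Sprr2d, a small proline-rich protein gene, had the same pattern, with 6.61 CPM on that plate, 0 to 0.588 CPM on the other 24 h plates and at most 0.271 CPM at 72 h. Esyt1, a tether between the endoplasmic reticulum and the plasma membrane, went from 6143 CPM on the May plate at 24 h to 2448 to 3559 CPM on the 72 h plates, while the other 24 h plates lay at 2722 to 5059 CPM. Dgkz, a diacylglycerol kinase, was at 558 CPM on that plate, at 149 to 514 CPM on the other 24 h plates and at 121 to 229 CPM at 72 h. For these 4 genes and Olfml3, the pooled comparison gave no call, with adjusted p of 0.242 to 0.755 by limma.

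Of the genes that the study names for other conditions, several had no call here. Gpnmb and Spp1, lysosomal and secreted glycoproteins of activated microglia, differed by -0.22 and -0.52, and Ifit3, an interferon-induced gene, by -0.68, with adjusted p of 0.678, 0.52 and 0.561 by limma. Arg1 and Retnla, markers of interleukin-4 stimulation, differed by 0.88 and 0.28 and were at medians of at most 1.91 CPM at both times. Msr1, a scavenger receptor, differed by -0.91 ± 0.21 (adjusted p = 0.0298), below the minimum of 1 log2. Clec4e, a lectin receptor for mycobacterial glycolipid, was called lower by -2.13 (adjusted p = 0.0462), but differed by 0.92 in the middle wells of the May lot and by -1.21 in its edge or corner wells.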

How the data were processed

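RNA of single wells was barcoded, pooled and sequenced as 3′-end libraries. The authors assigned reads to Ensembl release 81 transcripts with Salmon 0.7.1 (tool and version per the submitters' processing notes), summed them per gene, divided by all mapped reads and deposited CPM. The paper calls the values TPM, but no correction for length is described. The labels name the build mm8, while Ensembl release 81 is of GRCm38, and this difference could not be settled. Positions are from GENCODE vM21 (GRCm38), promoters from RefSeq (GRCm38.p6).

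Of 784 culture columns and 45581 genes, 142 columns were used, the 65 untreated wells and wells of 6 stimuli in the May lot, and 642 were not. The table of microglia from mice was not used. Depth was read as 1e6 divided by a culture's smallest step. Within a tolerance of 0.1, 74.4% to 86% of a culture's low values were whole reads, so counts were not rebuilt and single values carry no interval. A culture summed to 998202 to 999834 CPM.

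Genes above 5 CPM in at least 4 of the 65 cultures (11986) were compared as log2(CPM + 1), which understates changes of low genes, with limma 3.58.1 in R 4.3.3 on plate means. A called gene had a Benjamini-Hochberg adjusted p under 0.05 and a difference of at least 1 log2. Single values were compared by exact 2-sided permutation over plates. Only the main fit on plate means was tested on simulated data, which held no effect of lot or position. Other steps used matplotlib 3.10.9, pandas 2.3.3, scipy 1.17.1 and numpy 2.4.6 in Python 3.11.15. Alternatives covered the unit of replication, test, pseudocount, filter, scaling, lot, depth, weights and left-out plates. Fits by position, by lot and position, without the corner well and without a library pool that stands apart were chosen after seeing the data.

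Named genes are the 12 largest rises and 12 largest falls among called genes of at least 20 CPM whose plate means did not overlap (predicted genes, clones and pseudogenes left out), up to 4 rises and 4 falls a list, and genes the study names. All other genes and sets named were chosen after their values were seen, and the stimuli were limited to those with at least 3 middle wells at each time in the May lot. The members and lists were chosen with earlier results of these data known. Results for some genes are not reported here.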

Additional observations from a re-analysis of the deposited data

Results flagged for a closer look

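In 12 of 170 groups of plates checked, the plate mean of a named gene stood apart from the others, by a gap to the nearest plate that was large for the range of the group. Chance alone gives this in about 1 in 20 groups. Values are log2(CPM + 1), and 7 of the 12 belong to the 24 h plate of the May lot. On that plate Npnt was at 4.49 (0.50 to 1.06 on the other 24 h plates), Sprr2d at 2.78 (0 to 0.46), Ubb at 9.08 (4.72 to 6.03) and Rps2 at 7.15 (0 to 0.81). Sall1, a transcription factor gene of microglia, was highest there at 1.42 (0.30 to 0.64). Itgax at 5.59 (7.86 to 8.999) and Clec4n at 3.45 (5.29 to 5.65) were lowest there.

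The 72 h plate of middle wells gave 4 of the 12. Gclm was low at 8.20 (11.99 to 12.34 on the 3 plates of edge or corner wells). Tnip3, a brake on NF-kB, was high at 2.16 (0.32 to 0.42), Col1a2, a collagen gene of fibroblasts, at 1.40 (0.57 to 0.70) and Sprr2d at 0.31 (0 to 0.03). The last was Pfkm, a phosphofructokinase gene, on the 24 h plate of 3 edge or corner wells, at 3.94 (3.15 to 3.38 on the others). The part of lot, plate and position in these values was not tested.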

How the results depend on the processing

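In place of 397 calls, other settings gave 955 (plate as a random block), 1242 (wells as independent samples), 2 (genes above 0 CPM in 4 cultures), 40 (cultures of at least 3 M reads), 55 (plates weighted by wells), 1 (lot as a term) and, chosen after seeing the data, 10 (lot and position as terms), 0 (middle wells only, 457 genes at an unadjusted p under 0.05) and 263 (without the 72 h corner well). Omitting each plate gave 15 to 2026 calls: for 24 h, 52 and 65 without the February plates of 9 and 10 wells, 110, 52 and 185 without the March plates of 6, 4 and 3, and 761 without the May plate; for 72 h, 2026, 15, 44 and 63 without the plates of 10, 6, 5 and 4 wells. The cause of these shifts was not tested. The other 9 settings gave 268 to 504 calls. Of the named called genes, Sparc (0.062) and Col1a2 (0.51) changed sign with the lot as a term, and Sparc (0.32), Cbr2 (0.066) and Col1a2 (0.86) with lot and position as terms. Olfml3, not called over all lots, went to -1.999 and -2.26. In the middle wells of the May lot Sparc (0.41), Cbr2 (0.72), Col1a2 (1.19), Mcm5 (0.022), Clec4e (0.92), Tnip3 (0.47), Tfrc (0.022) and Gclm (-0.42) did, and in its edge or corner wells Sparc (0.18), Cbr2 (0.35) and Gdf15 (-0.18). In middle wells of all lots Gclm was at -0.11. No paired analysis was possible because the labels give the wells no numbers that tie plates of one time to those of the other, and fits within plates or pools were not run since none held both times.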

Other observations

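The study sorted genes into co-expression modules, 31 of which had members in the text used here. Since these modules were built on the cultures of the series, they are not independent evidence of a direction, and they are described by counts and medians only. The black module of the turquoise branch (TQ_black) had 7 lower and 0 higher genes of 38 tested (over all genes, 2.79% were lower and 0.517% higher), among them Cd109, an antagonist of TGF-beta (-3.08 over all lots and -3.08 within the May lot), Ltc4s and Zfp618. BL_blue and TQ_pink had 7 lower of 34 and of 37 tested. TQ_tan had 5 lower of 21, with Zfpm1, a cofactor of GATA factors (-2.25 and -2.15), and Smad7. BL_brown had 5 lower of 20, with Cyth4 and the kinesin gene Kif21b (-1.72 and -1.84). TQ_magenta had the most rises, 4 of 34: Trf, which encodes transferrin (1.11 and 0.53), Tspan13, Pink1, a kinase that guards mitochondria (1.24 and 1.16), and a gene known by a clone name.

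Among called genes outside the lists, 2 chemokine receptor genes were lower over all lots. Cxcr4 differed by -3.01 and by -1.15 within the May lot, and Ccr1 by -2.38 and -0.39. Nampt, the enzyme that limits the salvage of NAD, was higher by 1.39 and by 1.36 within the May lot. These genes were picked after their values were seen.

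Among the 5 tested genes of MHC class II, those of the peptide-binding chains had higher estimates in middle wells than in edge or corner wells of the May lot, with no test. H2-Aa, H2-Ab1 and H2-Eb1 differed by 2.96, 2.68 and 3.17 in middle wells and by -0.36, 0.32 and -1.17 in edge or corner wells. Their levels were low, at most 16.7, 20.7 and 24.96 CPM in any untreated well.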
